A study of Mus musculus with 10 samples.

Results

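The semaphorin system was described through 31 genes: 9 plexins, 2 neuropilins and 20 semaphorins. They were chosen by name as members of these families, out of 46517 genes in each deposited table. The choice was made with earlier results of these data known. The 10 libraries came from 5 mouse allograft models, named A to E, of the malignant peripheral nerve sheath tumour (MPNST), a sarcoma of nerves. Each model gave 1 library of GFP+ tumour cells, which in the series' terms express the CGD transgene, and 1 library of GFP- tumour cells, which do not. All cells came from fresh tumours dissociated with collagenase, and cells labelled wildtype and dead cells had been gated out by flow cytometry before RNA was taken. The sources used here give no mouse strain, age, tumour genotype, expansion of CGD or promoter of the transgene. The comparison was GFP+ against GFP- cells within a model, which is the paired comparison the series' design states, and levels were also set side by side across models.

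Semaphorins are secreted, membrane-spanning or membrane-anchored guidance proteins, best known for repelling growing axons. Plexins are their receptors, and act through an intracellular domain that switches off Ras-family GTPases and, in the B class, also recruits activators of RhoA. Neuropilins have short intracellular parts and serve as co-receptors for most secreted class 3 semaphorins and for members of the VEGF family. In peripheral nerve the system is known for guiding axons and neural crest cells and for contacts between Schwann cells and axons.

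Reads in genes numbered 15978673 to 22082207 per library, from 18693 to 20454 genes. All 31 genes passed the filter on low counts, 30 of them had a read in every library and 24 were at 1 CPM (read counts scaled to a common library total) or more in every library. The labels call the samples sorted tumour cells. Sox10, the transcription factor of Schwann and neural crest cells, stood at 0.111, 17.1, 52.6, 112 and 0.434 CPM in GFP+ cells of models A to E, against 0.0514, 1.63, 7.65, 3.69 and 0 CPM in GFP- cells. S100b, another Schwann marker, reached at most 2.93 CPM in any library and was at 0 in both libraries of models A and E. Fibroblast-type transcripts were abundant in every library, with Col1a1 between 2087 and 12271 CPM. Pecam1 and Cdh5 (endothelium), Ptprc and Csf1r (blood and myeloid cells) and Cd3e (T cells) stayed at or below 1.70 CPM. Fewer cells of a type and less RNA per cell cannot be told apart in such bulk libraries. The sources used here do not say whether the 5 models are separate animals. The paired p-values weigh the GFP+ minus GFP- difference against its spread over these models, not over animals known to be separate.

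No gene of the 31 passed edgeR's quasi-likelihood paired test, and 8 kept 1 direction in all 5 models after scaling of the libraries. Plxnb3, a plexin of class B, had higher values in GFP+ cells by 8.32-fold to 24.3-fold in the 3 models that expressed it. In models A and E its direction rested on 1 and 3 reads in GFP+ cells against 0 reads in GFP- cells. Sema4f, Sema4a, Sema3b and Sema7a had higher values in GFP+ cells, and Plxnc1, Sema3d and Sema3f lower ones. For Sema7a the sign in model E turned with the scaling of the libraries. In CPM without that scaling, Plxnb1 was higher in GFP+ cells of all 5 pairs and Sema7a in those of 4. Nrp1, Sema3c and Sema3g went opposite ways in different models. For 24 of the 31 genes the SD over the 5 model means (log2) was larger than the mean absolute difference within a pair. These are unlike measures, and the share over all tested genes was not counted.

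edgeR's quasi-likelihood test with the model as a block and Benjamini-Hochberg adjustment called 0 of the 31 genes, and 0 of all 13986 genes tested (0.0%). At an unadjusted p under 0.05, 8 of the 31 (25.8%) were higher in GFP+ cells, where 5.5% of all tested genes were. At the same unadjusted limit 3 of the 31 (9.68%) were lower, where 3.49% of all tested genes were. Because the set was chosen with earlier results of these data known, its shares are not independent of those results. The median log2 difference, GFP+ minus GFP-, was 0.14 over the 31 genes, with 19 higher and 12 lower, and -0.0028 over all tested genes. A call depended on the test used. DESeq2 called 3 of the 31 (9.68%) and 1.42% of the 13714 genes to which it gave an adjusted p. edgeR's likelihood-ratio test called 5 of the 31 (16.1%) and 1.47% of all tested genes. Without the filter on low counts the quasi-likelihood test called 1 of the 31, Plxnb3, and 0.182% of 25762 genes. Counted by direction alone, 5 of the 31 (16.1%) were higher in GFP+ cells in all 5 pairs, beside 5.11% of all tested genes. Another 3 of the 31 (9.68%) were lower in all 5 pairs, beside 4.66% of all tested genes. The levels of GFP+ and GFP- libraries overlapped between models for every one of the 31 genes. The share of all tested genes with such overlap was not counted, so it cannot be said whether the overlap is particular to this set. Without the model as a block, 2 of the 31 had an unadjusted p under 0.05, beside 1.36% of all tested genes.

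**Figure D1:**
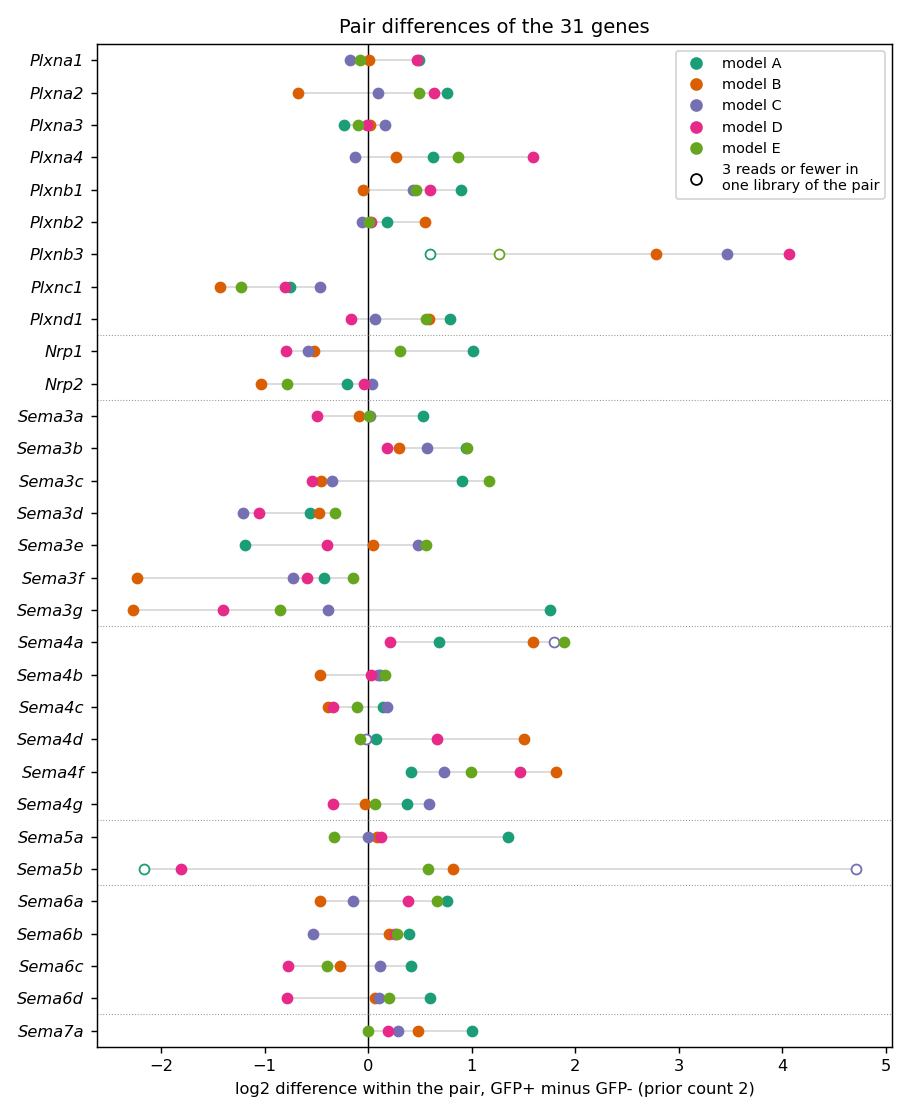
Difference in log2 CPM between GFP+ and GFP- cells of the same tumour model (x axis, GFP+ minus GFP-, prior count 2) for each of the 31 genes (y axis), with 1 point per model and hollow points where a library of the pair held 3 reads or fewer. All 5 points of Plxnb3, Sema3b, Sema4a and Sema4f lie to the right of 0, those of Plxnc1, Sema3d and Sema3f lie to the left, and those of Nrp1, Sema3c and Sema3g fall on both sides.

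Levels of different genes were compared only per length, as CPM per kilobase of exon (CPM/kb). Plxnb2, Sema7a and Nrp2 were the most abundant of the 31, at means over the 10 libraries of 46.2, 36.1 and 35.7 CPM/kb. Plxna1 followed with 19.4, Sema3a with 14.7 and Sema4c with 13.6 CPM/kb. Sema5b, Sema4a, Sema4d and Plxnb3 were the scarcest, at 0.170, 0.246, 0.255 and 0.389 CPM/kb. The order at the top depended on which exons count: with the longest transcript as the length, Nrp2 came first at 62.9 CPM/kb, Plxnb2 followed at 54.9 CPM/kb, and Nrp1 (35.7 CPM/kb in place of 13.3) and Sema3a (34.3 CPM/kb) passed Plxna1 (19.5 CPM/kb). Shares of a summed level use all exons. With the longest transcript, Nrp2 would make up 63.8% of mean neuropilin level in place of 72.9%, and Sema3a 51.9% of mean class 3 level in place of 37.6%.

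**Figure D2:**
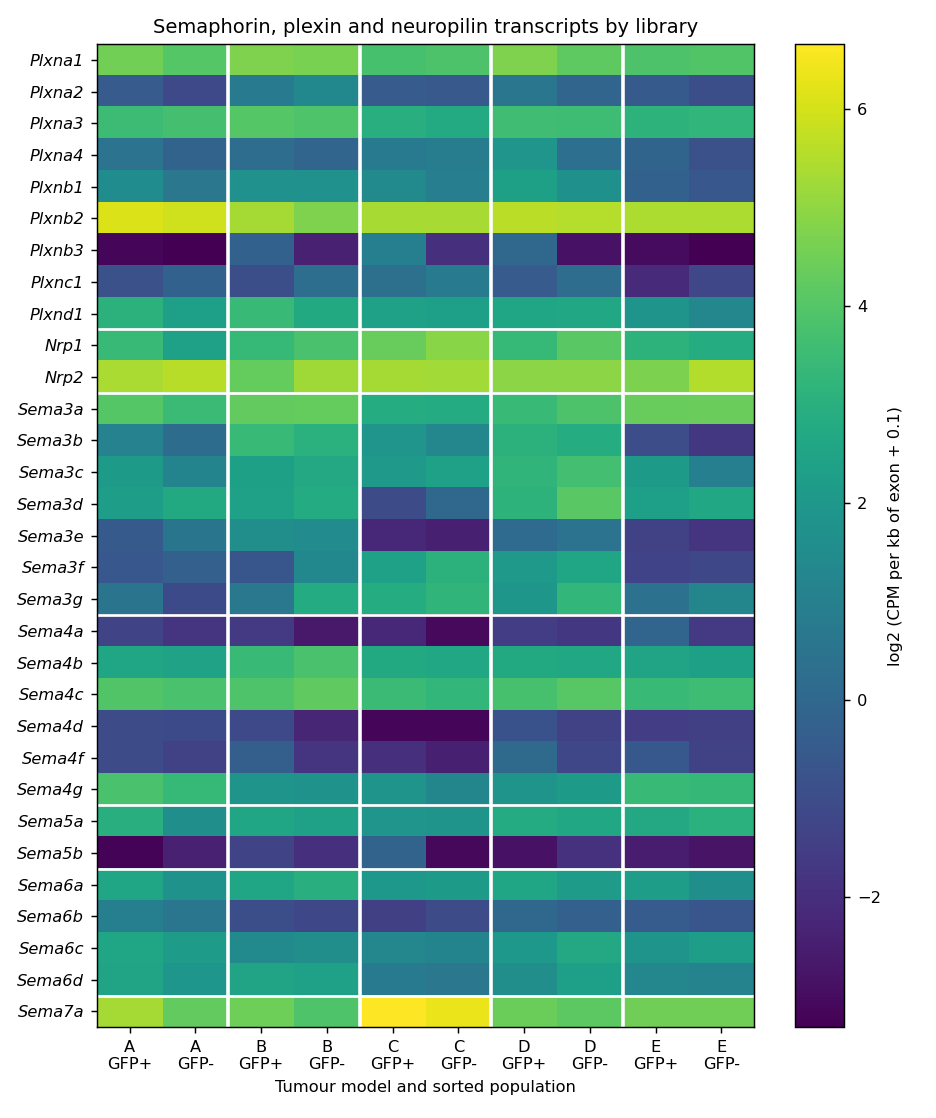
Level of each of the 31 genes (rows, grouped into plexins, neuropilins and semaphorin classes 3 to 7) in each of the 10 libraries (columns, GFP+ left of GFP- within each model), as log2 of CPM per kilobase of exon plus 0.1. Columns of the same model resemble each other for genes such as Sema3d, Sema3e and Sema7a, and Plxnb3 is brightest in GFP+ cells of models B, C and D.

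Plxnb3 is a receptor of Sema5a and lies on the X chromosome, at chrX:73757090-73772514 on the plus strand of GRCm38 (mm10). In GFP+ cells of models A to E it stood at 0.0556, 4.90, 12.2, 6.09 and 0.145 CPM, against 0, 0.589, 0.991, 0.250 and 0 CPM in GFP- cells of the same models. Models A and E gave 1 and 3 reads in GFP+ cells and 0 reads in GFP- cells, which allows up to 0.154 and 0.163 CPM there (3 reads, counting error only), so no fold is given for them. In models B, C and D the reads were 92, 225 and 111 in GFP+ cells, against 13, 18 and 4 in GFP- cells, which makes 8.32-fold, 12.3-fold and 24.3-fold higher CPM in GFP+ cells. The 3 expressing models carried the difference, and in each of them the GFP+ library was above every GFP- library. Plxnb3 had the smallest p of all 13986 tested genes, with a log2 difference of 3.61 (SE 0.34) and an adjusted p of 0.123 in edgeR's quasi-likelihood test. With models A, D or E left out it was 3.33 to 3.60, and without model B or C the gene fell below the filter and was not tested. The adjusted p was 2.2e-08 in DESeq2, 8.6e-14 in edgeR's likelihood-ratio test and 0.0022 in edgeR's quasi-likelihood test without the filter. The order of the GFP+ libraries was not that of Sox10, which was highest in model D, but the same 3 models were high for both genes and models A and E were near 0 for both. The part of Schwann-type cells in the difference was not tested. On the same chromosome, Plxna3 had a log2 difference of -0.03 (SE 0.08), with 3 of its 5 pairs higher in raw CPM. Xist, also X-linked and named after its values were seen, stood at 0.111, 1049, 724, 103 and 567 CPM in GFP+ cells of models A to E, against 0.0514, 523, 615, 2.82 and 565 CPM in GFP- cells. Its pairs differed most in model D, by less in model B and little in C and E.

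Promoter sequence is shown for the 2 genes of the set with the smallest p values in each direction, Plxnb3 and Sema4f (higher in GFP+ cells) and Sema3d and Plxnc1 (lower). Each is the 250 bases before the RefSeq transcript start on GRCm38.p6, read 5′ to 3′ on the gene's strand. Capitals mark matches, on either strand, to ACAAAG or ACAATG, the core words bound by SOX-family factors, which were searched because Sox10 differed between the libraries. The windows are chrX:73756853-73757102 (plus strand) for Plxnb3, chr6:82939770-82940019 (minus) for Sema4f, chr5:12382916-12383165 (plus) for Sema3d and chr10:94944846-94945095 (minus) for Plxnc1.
Plxnb3: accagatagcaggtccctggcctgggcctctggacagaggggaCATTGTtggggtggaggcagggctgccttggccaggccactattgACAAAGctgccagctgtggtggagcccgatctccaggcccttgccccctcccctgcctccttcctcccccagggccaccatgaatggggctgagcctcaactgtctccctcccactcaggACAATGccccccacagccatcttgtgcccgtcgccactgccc
Sema4f: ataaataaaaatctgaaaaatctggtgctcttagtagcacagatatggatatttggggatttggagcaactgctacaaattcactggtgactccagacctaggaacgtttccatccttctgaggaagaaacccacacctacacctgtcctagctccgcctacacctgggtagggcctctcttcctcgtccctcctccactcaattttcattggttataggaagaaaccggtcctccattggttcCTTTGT
Sema3d: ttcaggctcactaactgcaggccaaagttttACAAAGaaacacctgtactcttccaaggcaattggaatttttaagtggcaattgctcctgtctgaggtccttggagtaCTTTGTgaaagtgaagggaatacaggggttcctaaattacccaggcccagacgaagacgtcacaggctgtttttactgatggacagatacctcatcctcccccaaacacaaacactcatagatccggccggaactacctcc
Plxnc1: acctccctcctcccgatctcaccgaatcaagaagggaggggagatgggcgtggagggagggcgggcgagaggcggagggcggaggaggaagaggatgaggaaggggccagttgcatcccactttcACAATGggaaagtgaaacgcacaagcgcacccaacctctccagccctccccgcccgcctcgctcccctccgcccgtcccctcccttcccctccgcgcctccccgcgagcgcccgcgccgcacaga

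The Plxnb3 window held 3 matches, the Sema3d window 2, and the Sema4f and Plxnc1 windows 1 each, with no overlaps. Of all 32851 windows of this length in the RefSeq table, 25.2% held at least 1 match, 4.12% at least 2 and 0.493% at least 3. Among the 37 windows of the 26 genes of the set found in the table, 8 windows (21.6%) held a match, which is not more than the share of all windows. The windows also differed in base composition: GC made up 65.2% of the Plxnb3 window with 3 CG dinucleotides, against 68.8% with 22 CG dinucleotides in the Plxnc1 window. The median window of the table had 52.4% GC and 6 CG dinucleotides.

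The other class B plexins were expressed in every library. Plxnb2, a receptor of Sema4c, had the highest level per length of the 31 and made up 52.1% ± 8.55 of summed plexin CPM/kb in GFP+ cells and 52.5% ± 11.9 in GFP- cells (SD, n = 5 each). It stood at 309 to 543 CPM in GFP+ cells against 202 to 468 CPM in GFP- cells, with a log2 difference of 0.14 (SE 0.11, edgeR adjusted p = 0.733), and of 0.044 without model B. Plxnb1, the receptor of Sema4d, stood at 26.8, 31.2, 24.5, 47.5 and 7.29 CPM in GFP+ cells of models A to E, against 14.1, 30.7, 17.8, 30.2 and 5.31 CPM in GFP- cells. Model B showed almost no difference, and the other 4 GFP+ libraries lay 1.37-fold to 1.90-fold above their partners. Its log2 difference was 0.47 (SE 0.14, edgeR adjusted p = 0.417).

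Of the class A plexins, which pair with neuropilins to receive class 3 semaphorins, Plxna1 and Plxna3 were the abundant ones. Plxna1 averaged 189 ± 58.2 CPM in GFP+ cells against 163 ± 38.4 CPM in GFP- cells, and Plxna3 averaged 87.5 ± 26.1 CPM in GFP+ cells against 87.8 ± 25.6 CPM in GFP- cells (SD, n = 5 each). In the paired edgeR fit the log2 difference was 0.15 (SE 0.12) for Plxna1 and -0.03 (SE 0.08) for Plxna3. Plxna4, known for Sema3a signalling with Nrp1, stood at 18.2, 15.3, 23.6, 51.1 and 11.6 CPM in GFP+ cells of models A to E, against 11.5, 12.0, 25.3, 16.3 and 6.35 CPM in GFP- cells. Model D alone showed a 3.14-fold higher level in GFP+ cells, and model C was slightly lower there. Fitted over all models, the log2 difference was 0.65 (SE 0.23, edgeR adjusted p = 0.479), and 0.41 without model D. Plxna2, a receptor of Sema6a, lay between 10.4 and 27.3 CPM in GFP+ cells and between 6.17 and 41.7 CPM in GFP- cells, and was lower in GFP+ cells of model B and higher in those of the other 4 models (log2 difference 0.25, SE 0.22; 0.50 without model B and 0.12 without A).

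Plxnc1, the receptor of Sema7a, had lower values in GFP+ cells throughout. It stood at 3.78, 3.57, 9.94, 5.32 and 1.11 CPM in GFP+ cells of models A to E, against 6.32, 9.37, 13.5, 9.01 and 2.77 CPM in GFP- cells. GFP- cells thus held 1.36-fold (model C) to 2.63-fold (model B) the level of GFP+ cells, while the 2 populations overlapped across models. Its log2 difference was -0.94 (SE 0.19) with an adjusted p of 0.310 in edgeR's quasi-likelihood test, 0.0139 in DESeq2 and 0.0061 in edgeR's likelihood-ratio test. Plxnd1, the receptor of Sema3e in blood vessel development, stood at 62.3, 75.6, 37.5, 42.6 and 25.2 CPM in GFP+ cells, against 35.3, 47.9, 35.3, 46.1 and 17.2 CPM in GFP- cells. It was higher in GFP+ cells of every model but D (log2 difference 0.37, SE 0.15, edgeR adjusted p = 0.524).

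**Figure D3:**
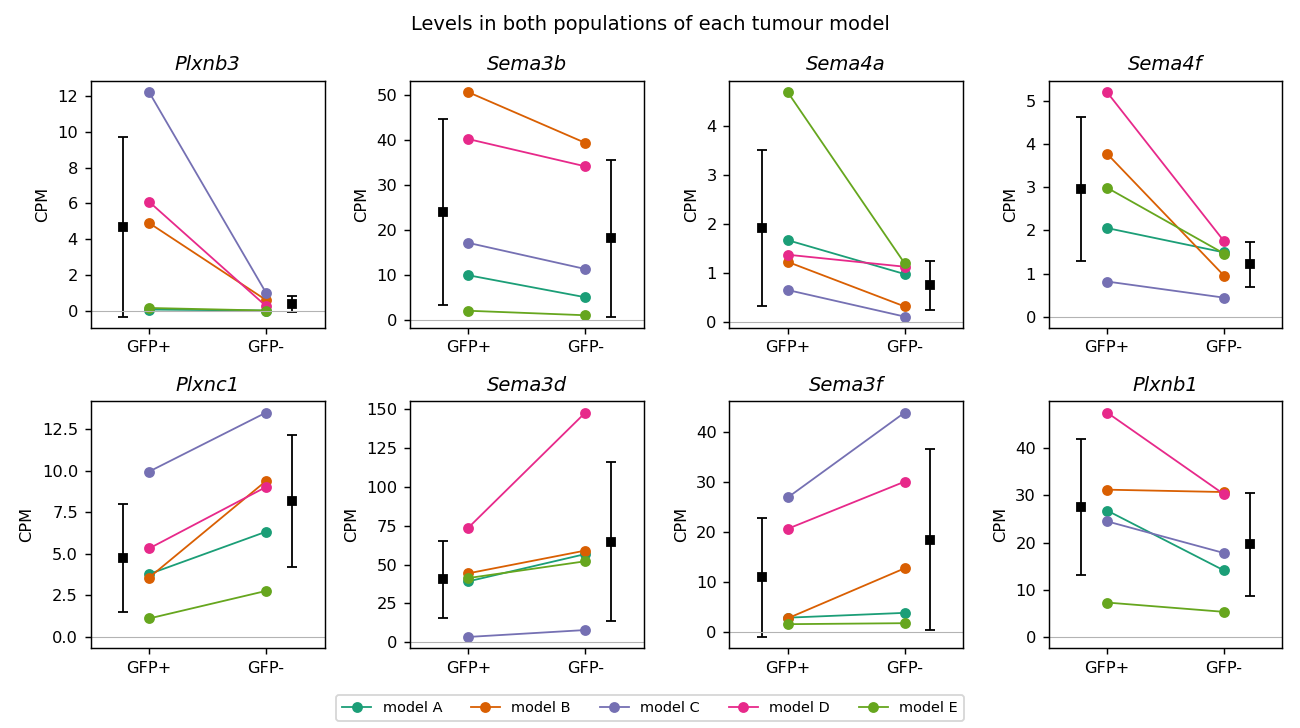
Levels (y axis, CPM) in GFP+ cells (left) and GFP- cells (right) of each tumour model, joined by a line per model, for 8 genes, with black squares and bars for the mean and SD of 5 libraries. Lines of Plxnb3, Sema3b, Sema4a and Sema4f slope down towards GFP- cells and lines of Plxnc1, Sema3d and Sema3f slope up in all 5 models, while Plxnb1 is nearly level in model B.

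Both neuropilins were abundant, and neither moved the same way in all models. Nrp2, the co-receptor known for Sema3f and VEGF-C, stood at 501, 231, 474, 356 and 307 CPM in GFP+ cells of models A to E, against 566, 451, 453, 354 and 534 CPM in GFP- cells. GFP+ cells held about the same level in models C and D and a lower one in A, B and E. The log2 difference was -0.40 (SE 0.17, edgeR adjusted p = 0.558), and -0.25 without model B. Nrp1, the co-receptor of Sema3a and VEGF-A, stood at 104, 99.0, 197, 99.9 and 85.9 CPM in GFP+ cells, against 50.5, 135, 291, 167 and 70.0 CPM in GFP- cells. It was 2.07-fold higher in GFP+ cells of model A, 1.23-fold higher in those of E, and lower in those of B, C and D. The log2 difference of Nrp1 was -0.13 (SE 0.26, edgeR adjusted p = 0.932). Summed neuropilin level was 43.5 ± 12.7 CPM/kb in GFP+ cells against 54.4 ± 7.96 CPM/kb in GFP- cells (SD, n = 5 each), with Nrp2 making up 72.3% ± 6.0 in GFP+ cells and 74.0% ± 14.5 in GFP- cells.

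Among the 7 secreted class 3 semaphorins, Sema3d and Sema3f had lower and Sema3b higher values in GFP+ cells of all 5 models. Sema3d, a guidance cue of axons and neural crest cells, stood at 39.2, 44.4, 3.37, 73.8 and 41.3 CPM in GFP+ cells of models A to E, against 56.8, 59.0, 7.82, 148 and 52.1 CPM in GFP- cells. Model C held far less of it than the others in both populations, and the pair differences ran from 1.26-fold (E) to 2.32-fold (C) higher in GFP- cells. The log2 difference was -0.70 (SE 0.14) with an adjusted p of 0.310 in edgeR's quasi-likelihood test, 0.0043 in DESeq2 and 0.0024 in edgeR's likelihood-ratio test. Sema3f, which repels axons through Nrp2 and class A plexins, stood at 2.89, 2.77, 26.9, 20.7 and 1.59 CPM in GFP+ cells, against 3.86, 12.8, 43.9, 30.1 and 1.79 CPM in GFP- cells. Its pair in model E was nearly level at 33 reads in each library, and model B differed most. The log2 difference was -0.86 (SE 0.29, edgeR adjusted p = 0.461), and -0.52 without model B. Sema3b, known in human lung cancer as a candidate tumour suppressor, stood at 9.89, 50.7, 17.1, 40.3 and 1.98 CPM in GFP+ cells, against 4.99, 39.4, 11.3, 34.2 and 0.976 CPM in GFP- cells. The GFP+ library was 1.18-fold to 2.03-fold higher in each model, with far larger gaps between models than within them (log2 difference 0.55, SE 0.15, edgeR adjusted p = 0.392).

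The other class 3 genes had no common direction. Sema3a, the first-described repellent of the class in vertebrates, was their most abundant member at 205 ± 78.3 CPM in GFP+ cells against 201 ± 78.6 CPM in GFP- cells (SD, n = 5 each), with a log2 difference of -0.0033 (SE 0.14). Sema3c, which acts through both neuropilins, stood at 30.0, 35.3, 29.55, 64.8 and 30.2 CPM in GFP+ cells of models A to E, against 15.7, 46.2, 37.0, 91.2 and 13.5 CPM in GFP- cells. It was 1.91-fold and 2.24-fold higher in GFP+ cells of models A and E and lower in those of B, C and D, the same split of models as for Nrp1. Sema3g stood at 6.11, 6.82, 32.4, 17.1 and 5.65 CPM in GFP+ cells, against 1.70, 31.8, 41.6, 43.7 and 10.4 CPM in GFP- cells. It was 3.60-fold higher in GFP+ cells of model A and 4.66-fold higher in GFP- cells of model B (log2 difference -0.76, SE 0.49, edgeR adjusted p = 0.690), and the log2 difference was -1.23 without model A and -0.37 without model B. Sema3e, which binds Plxnd1 without a neuropilin, lay between 1.14 and 27.2 CPM in GFP+ cells and between 0.771 and 25.1 CPM in GFP- cells, with a log2 difference of -0.17 (SE 0.27).

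Of the 6 class 4 semaphorins, which span the membrane, the scarce members Sema4f and Sema4a had higher values in GFP+ cells of every model. Sema4f, which has been described in contacts of Schwann cells with axons, stood at 2.06, 3.78, 0.815, 5.21 and 2.99 CPM in GFP+ cells of models A to E, against 1.49, 0.951, 0.440, 1.75 and 1.46 CPM in GFP- cells. The pairs differed by 1.38-fold (A) to 3.98-fold (B), on 15 to 95 reads in GFP+ cells and 8 to 29 reads in GFP- cells. The log2 difference was 1.18 (SE 0.27) with an adjusted p of 0.354 in edgeR's quasi-likelihood test, 0.0847 in DESeq2 and 0.0115 in edgeR's likelihood-ratio test. Sema4a, known from immune cells, stood at 1.67, 1.22, 0.652, 1.37 and 4.68 CPM in GFP+ cells, against 0.977, 0.317, 0.110, 1.13 and 1.19 CPM in GFP- cells. The model C pair rested on 12 reads in GFP+ cells and 2 reads in GFP- cells, and model D was nearly level. The log2 difference of Sema4a was 1.33 (SE 0.36) with an adjusted p of 0.393 in edgeR's quasi-likelihood test, 0.194 in DESeq2 and 0.0405 in edgeR's likelihood-ratio test.

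The other class 4 genes differed by less than their spread between pairs. Sema4c, the Plxnb2 ligand, averaged 60.3 ± 9.76 CPM in GFP+ cells against 64.3 ± 16.4 CPM in GFP- cells, and Sema4b averaged 39.64 ± 11.04 CPM in GFP+ cells against 41.1 ± 20.6 CPM in GFP- cells (SD, n = 5 each). Sema4g averaged 59.7 ± 41.7 CPM in GFP+ cells against 52.4 ± 33.1 CPM in GFP- cells, an SD that reflects its levels in models A and E. Sema4d, the Plxnb1 ligand, lay between 0.109 and 3.67 CPM in GFP+ cells and between 0.110 and 2.83 CPM in GFP- cells, with 2 reads in each library of model C. Its log2 difference was 0.52 (SE 0.31, edgeR adjusted p = 0.655), and 0.22 without model B.

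Class 5 semaphorins carry thrombospondin repeats. Sema5a, a ligand of Plxnb3, stood at 146, 106, 66.4, 131 and 121 CPM in GFP+ cells of models A to E, against 56.0, 95.3, 65.3, 116 and 153 CPM in GFP- cells. Only model A showed a large difference, 2.60-fold higher in GFP+ cells, and without it the log2 difference was -0.04 in place of 0.24 (SE 0.22). In models B, C and D, where Plxnb3 was expressed, the Sema5a pair differences were 1.02-fold to 1.13-fold. Sema5b was at most 5.65 CPM (model C GFP+ cells, against 0.110 CPM in GFP- cells of that model), with pairs pointing both ways and a log2 difference of 0.57 (SE 1.04).

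The class 6 semaphorins, ligands of class A plexins that work without neuropilins, had log2 differences between -0.18 (Sema6c, SE 0.17) and 0.24 (Sema6a, SE 0.19), and edgeR adjusted p values of 0.750 to 0.976. Both ends moved with single models: Sema6c was at -0.032 without model D, and Sema6a at 0.10 without A and 0.42 without B. Sema6a averaged 46.2 ± 7.77 CPM in GFP+ cells against 40.1 ± 16.7 CPM in GFP- cells, and Sema6d averaged 38.4 ± 20.0 CPM in GFP+ cells against 36.4 ± 17.4 CPM in GFP- cells (SD, n = 5 each). Sema6c averaged 21.7 ± 8.58 CPM in GFP+ cells against 24.3 ± 9.67 CPM in GFP- cells. Sema6b was the scarce member, at 3.32 ± 2.56 CPM in GFP+ cells against 2.73 ± 1.71 CPM in GFP- cells.

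Sema7a is the only semaphorin held by a lipid (GPI) anchor and is a ligand of Plxnc1 and of integrin beta-1. Averaged over the 10 libraries, it had the highest level per length of all semaphorins. It stood at 130, 72.4, 333, 69.3 and 73.1 CPM in GFP+ cells of models A to E, against 63.1, 49.5, 269, 58.3 and 73.7 CPM in GFP- cells. Model C stood apart in both populations, and there Sema7a made up 62.1% of summed semaphorin CPM/kb in GFP+ cells and 56.4% in GFP- cells. The pairs differed by 2.05-fold in model A, 1.46-fold in B, 1.24-fold in C and 1.19-fold in D, and model E was level, so that its sign depended on the scaling of the libraries. Over all 5 models the log2 difference was 0.39 (SE 0.14, edgeR adjusted p = 0.479), and 0.24 without model A. Its receptor Plxnc1, described above, was lower in GFP+ cells of all 5 models, the opposite sign to Sema7a in models A to D.

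An exact two-sided sign-flip permutation test of the 5 pair differences, taken gene by gene, cannot go below p = 0.0625. It gave that smallest value for Plxnb3, Plxnc1, Sema3b, Sema3d, Sema3f, Sema4a, Sema4f and Sema7a, the 8 genes with 1 direction in all pairs. Any 5 differences of the same sign give that value, so it adds nothing to the direction itself.

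Between tumour models the levels of part of the 31 genes were far apart, which is a description, with 1 library of each population per model and no test. For 16 of the 31 genes the highest mean of a model's 2 libraries was more than 4-fold the lowest. Among these 16, the lowest means of Plxnb3 (0.028 CPM, model A) and Sema4d (0.109 CPM, model C) rested on very few reads. The share over all tested genes was not counted. Sema3b ranged from a mean of 1.48 CPM in model E to 45.05 CPM in model B, a 30.5-fold range. Sema3e ranged 27.4-fold, between 0.956 CPM in model C and 26.1 CPM in model B, and Sema3f ranged 21.0-fold, between 1.69 CPM in model E and 35.4 CPM in model C. Sema3d ranged 19.8-fold, between 5.59 CPM in model C and 111 CPM in model D. These 4 secreted ligands did not share an order of models. Model C had the lowest mean of Plxna1, Plxna3, Sema3a, Sema3d, Sema3e, Sema4a, Sema4c, Sema4d, Sema4f, Sema4g, Sema5a, Sema6b, Sema6c and Sema6d. It had the highest mean of Plxnb3, Plxnc1, Nrp1, Sema3f, Sema3g, Sema5b and Sema7a. Models A and E shared high Sema4g (104 and 88.2 CPM, against 24.8 to 33.3 CPM in the other models) and near-absent Plxnb3. At the other end, Nrp2, Sema4c, Sema6a, Plxna1 and Plxnb2 stayed within 1.56-fold to 1.98-fold across the model means.

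**Figure D4:**
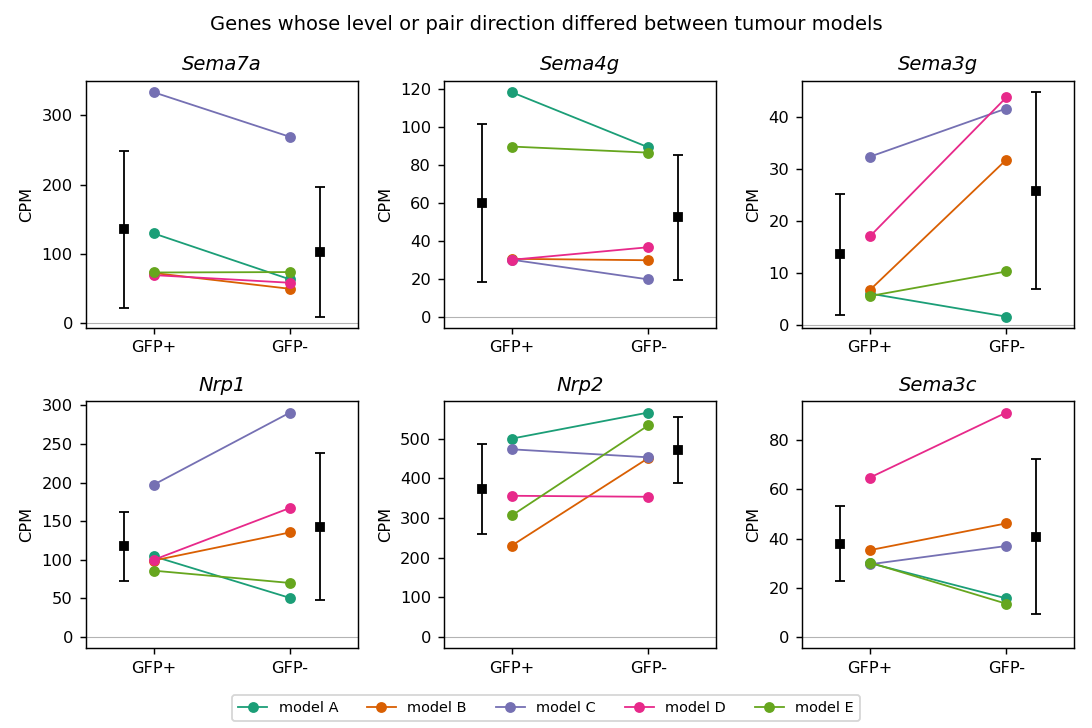
Levels (y axis, CPM) of 6 genes in GFP+ cells (left) and GFP- cells (right), joined by a line per tumour model, with black squares and bars for the mean and SD of 5 libraries. Model C stands apart for Sema7a and Nrp1, models A and E for Sema4g, and lines of Nrp1, Sema3c and Sema3g cross because the models went opposite ways.

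Genes that work with the receptors were followed in 4 lists of 61 genes, of which 58 were tested: co-receptors and other ligands, GTPases and their regulators, cytoskeleton effectors, and proteases that cut the ligands. None was called by edgeR's quasi-likelihood test, while DESeq2 called 2 and edgeR's likelihood-ratio test called 3. At an unadjusted p under 0.05, 14 (24.1%) were higher in GFP+ cells, beside the 5.5% of all tested genes given above, and 0 were lower, beside 3.49%. The lists, too, were chosen with earlier results of these data known. Without model B, 8 of these genes had an unadjusted p under 0.05, beside 5.69% of all genes then tested, against 8.99% of all genes with every model in the fit. The median log2 difference over the 58 genes was 0.0049, with 29 higher and 29 lower. Cytoskeleton effectors held 7 of the 14 among 15 tested genes, with a median of 0.19 and 11 of 15 higher. Co-receptors and other ligands held 5 among 16 tested, GTPases and their regulators 2 among 20, and the proteases none among 7.

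Crmp1, a collapsin response mediator that relays Sema3a signals to the cytoskeleton, had the smallest p of the lists. It stood at 26.01, 2.66, 1.41, 20.9 and 2.32 CPM in GFP+ cells of models A to E, against 9.30, 0.181, 0.550, 5.57 and 0.542 CPM in GFP- cells. Each GFP+ library was above its partner, with a log2 difference of 1.94 (SE 0.30, edgeR quasi-likelihood adjusted p = 0.230, DESeq2 adjusted p = 6.5e-06). Mical2, an enzyme that oxidises actin, was higher in GFP+ cells of all 5 models by a log2 difference of 0.68 (SE 0.17), with an edgeR quasi-likelihood adjusted p of 0.363 and a DESeq2 adjusted p of 0.0197. Nrcam, an adhesion molecule that associates with neuropilin 2, was higher in all 5 models by 0.79 (SE 0.18), and Pak1, a kinase downstream of Rac, by 0.43 (SE 0.11), both on the log2 scale and both at an edgeR adjusted p of 0.363. L1cam, named after its values were seen as the point farthest right among the co-receptors, stood at 0.50, 12.4, 12.3, 56.3 and 0.145 CPM in GFP+ cells, against 0.822, 1.40, 4.90, 2.63 and 0.325 CPM in GFP- cells. It was higher in GFP+ cells of models B, C and D, the models with Plxnb3, and at low levels with the opposite sign in A and E. The smallest p values among lower genes were those of Mmp14, a membrane protease that can cut Sema4d (log2 difference -0.35, SE 0.16, lower in 5 of 5 pairs), Erbb2, a receptor kinase that pairs with Plxnb1 (-0.21, SE 0.10), the kinase Gsk3b (-0.26, SE 0.13) and the GTPase Rhod (-0.17, SE 0.10). Their edgeR adjusted p values were 0.583, 0.591, 0.62 and 0.644 in that order.

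**Figure D5:**
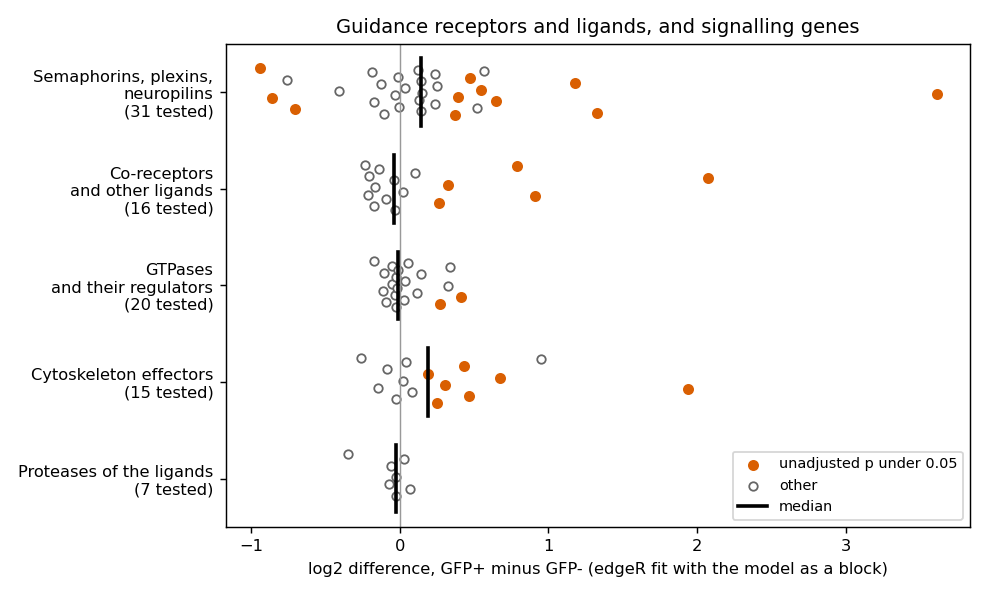
Fitted log2 difference, GFP+ minus GFP- (x axis), of each tested gene among semaphorins, plexins and neuropilins and in the 4 signalling lists (y axis), with filled points for an unadjusted p under 0.05 and a bar at the median. All 14 filled points of the signalling lists lie to the right of 0, and the medians of the 4 lists lie between -0.04 and 0.19.

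Markers of cell types and states were summed in the same pairs. Only the Schwann-lineage and mitosis sums were higher in GFP+ cells of all 5 models. The summed level of 16 Schwann-lineage genes was 135 to 557 CPM in GFP+ cells against 111 to 293 CPM in GFP- cells, and was higher in GFP+ cells of all 5 models, with 10 of its 14 tested genes higher at an unadjusted p under 0.05. In models A and E, where Sox10 was near 0, Gap43 (chosen after its values were seen) made up most of that difference, at 56.1 and 118 CPM in GFP+ cells against 36.0 and 86.2 CPM in GFP- cells. Pmp22, an abundant gene of the list, was lower in GFP+ cells of every model but C (log2 difference -0.31, SE 0.13, edgeR adjusted p = 0.558). The summed level of 14 mitosis genes was 566 to 1007 CPM in GFP+ cells against 276 to 629 CPM in GFP- cells, likewise higher in all 5 with 13 of 14 genes higher at that limit, although Mki67 itself was 111 CPM in GFP+ cells against 124 CPM in GFP- cells of model A. The summed level of 10 fibroblast genes was 19225 to 35151 CPM in GFP+ cells against 20190 to 40201 CPM in GFP- cells, lower in GFP+ cells of all models but A. Pdgfra, a fibroblast marker, was lower in GFP+ cells of all 5 models by a log2 difference of -0.51 (SE 0.13, edgeR adjusted p = 0.379). Pericyte genes summed to 165 to 451 CPM in GFP+ cells against 152 to 997 CPM in GFP- cells, and were higher in GFP+ cells of 2 models. Rgs5 stood at 0.706 to 16.8 CPM in GFP+ cells against 1.79 to 63.8 CPM in GFP- cells. The part of cell type or cycling in the semaphorin, plexin and neuropilin differences was not tested. Endothelial genes summed to 5.74 to 15.5 CPM in GFP+ cells against 4.83 to 24.2 CPM in GFP- cells. Myeloid genes summed to 9.23 to 17.6 CPM in GFP+ cells against 8.42 to 23.7 CPM in GFP- cells. The endothelial sum was higher in GFP+ cells of 2 models and the myeloid sum in those of 3. Lymphoid genes summed to 0.0543 to 0.389 CPM in GFP+ cells against 0.0550 to 0.563 CPM in GFP- cells, with 3 of the 8 at 0 in every library. At these low levels the lymphoid sum was lower in GFP+ cells of all 5 models.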

How the data were processed

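Total RNA of sorted cells was sequenced in 10 libraries. Per the submitters' processing notes, the tool was STAR 2.4.2.8 and the genome build mm10. The authors deposited raw read counts per gene in the layout of STAR's gene counts, with 1 unstranded column and 1 column per strand setting. The sources used here do not state the gene annotation, the kit or its strandedness. The column of the second strand setting was used, which took 96.9% to 97.1% of stranded gene reads, so genes that overlap on opposite strands were counted apart. Summary lines (21.3% to 24.3% of reads) entered neither library sizes nor tests. Reads with several genomic positions are not in such counts. Symbols, coordinates and exon lengths came from GENCODE vM21, on the same assembly (46005 identifiers matched, 512 did not), and promoters from RefSeq on GRCm38.p6.

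From the deposited counts, CPM was computed over reads in genes. The test was edgeR 4.0.16 (R 4.3.3): TMM, filterByExpr, quasi-likelihood, the model letter as a block, two-sided, Benjamini-Hochberg over 13986 genes, called under 0.05. The letters pair the libraries because both populations came from the same tumour model. The biological coefficient of variation was 0.196. Single genes were also tested over 5 pairs by an exact sign-flip permutation test of log2(CPM + prior count 2). Alternatives were no block, RLE factors, library totals only, no filter, 1 CPM in 5 libraries, DESeq2 1.42.0, the likelihood-ratio test, limma 3.58.1 voom, unstranded counts, each model left out, other prior counts and the longest transcript as length. The fitting code was tested on simulated data. Intervals and floors cover counting error only. All 31 genes are reported; of the signalling lists, the 4 smallest p values in each direction and any call are named, and of the marker lists, sums and defining markers. The genes, lists and motifs were chosen with earlier results of these data known, and neither they nor the tests are independent of those results.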

Additional observations from a re-analysis of the deposited data

Results flagged for a closer look

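In each population the 5 libraries of each of the 31 genes were searched for a highest or lowest value that lay far from the other 4 (Dixon's ratio). The search used CPM without logs, and 9 of 62 groups were flagged, each for its highest value. The limit used flags about 1 in 20 groups of independent, normally distributed values. These groups share the same 5 models and were not shown to be normal, so their number cannot be set against that rate. Sema7a stood apart in model C in both populations, at 333 CPM in GFP+ cells (69.3 to 130 CPM in the other GFP+ libraries) and 269 CPM in GFP- cells (49.5 to 73.7 CPM in the others). Sema4b stood apart in model B in both populations, at 58.9 CPM in GFP+ cells (31.6 to 37.4 CPM in the others) and 77.6 CPM in GFP- cells (28.4 to 34.9 CPM in the others). In model B, GFP- cells also stood apart for Plxna2, at 41.7 CPM (6.17 to 14.9 CPM in the others), and for Sema6a, at 68.6 CPM (26.6 to 38.1 CPM in the others). Nrp1 stood apart in GFP+ cells of model C, at 197 CPM (85.9 to 104 CPM in the others). Sema3c stood apart in GFP+ cells of model D, at 64.8 CPM (29.55 to 35.3 CPM in the others). Sema4a stood apart in GFP+ cells of model E, at 4.68 CPM (0.652 to 1.67 CPM in the others).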

How the results depend on the processing

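Of 429 alternative fits of single genes of the set, 405 kept direction and side of the threshold, 9 passed the threshold and 15 turned direction, and 22 of the 31 genes kept their direction in every fit run. The tests differed in their calls: the set had 0 called genes in the quasi-likelihood fit, 1 without the filter, 3 with DESeq2 and 5 with the likelihood-ratio test. Over all genes these counts were 0, 47, 195 and 206, and over the signalling lists 0, 1, 2 and 3. Without the replicate block that makes the fit paired, genes at an unadjusted p under 0.05 numbered 2 in place of 11 in the set and 1 in place of 14 in the signalling lists, and 1.36% in place of 8.99% of all tested genes. With the block kept and a model left out, the count in the signalling lists ran from 8 (without model B) to 14 (without model A). The share of all genes then tested was likewise lowest without model B, at 5.69%, and highest without model A. The block changed no call in the quasi-likelihood fit. Library totals only, which moved the median of all genes to 0.03, turned the log2 differences of Sema3a to 0.028 and Sema4b to 0.019, and the fit without the block turned Sema3c to -0.14. With each model left out in turn, log2 differences ran from -0.082 to 0.011 for Plxna3, -0.41 to 0.048 for Nrp1, -0.14 to 0.12 for Sema3a, -0.15 to 0.31 for Sema3c, -0.36 to 0.10 for Sema3e, -0.072 to 0.10 for Sema4b, -0.037 to 0.37 for Sema5a, -0.51 to 1.24 for Sema5b and -0.11 to 0.25 for Sema6d. Without changing sign, the range was 0.054 to 0.22 for Plxna1, 0.021 to 0.25 for Sema4g, 0.065 to 0.30 for Sema6b and -0.17 to -0.031 for Sema4c. The cause was not tested. In 5 fits a gene fell below the filter and gave no value: Plxnb3 and Sema5b at 1 CPM in 5 libraries and without model B, and Plxnb3 without model C. Depth limits Plxnb3 in models A and E, Sema4d and Sema4a in model C, and Sema5b.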

Other observations

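The pool of secreted class 3 ligands, summed as CPM per kilobase of exon, was 35.9 ± 8.66 in GFP+ cells and 41.9 ± 18.5 in GFP- cells (SD, n = 5 each). Sema3a made up 23.8% to 64.4% of it in GFP+ cells and 20.9% to 65.1% in GFP- cells. Sema3d made up 1.42% to 18.8% in GFP+ cells and 2.75% to 28.2% in GFP- cells, and Sema3b made up 1.31% to 23.7% in GFP+ cells and 0.650% to 15.5% in GFP- cells. Summed plexin level was 94.2 ± 20.1 CPM/kb in GFP+ cells and 82.8 ± 10.8 CPM/kb in GFP- cells, and summed semaphorin level was 125 ± 24.0 CPM/kb in GFP+ cells and 119 ± 24.0 CPM/kb in GFP- cells (SD, n = 5 each).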
